A study of Mus musculus with 7 samples.

Results

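Between 8 h and 30 h of stimulation, most genes for copying DNA and for dividing were higher in mouse B cells under each of 3 stimuli. Genes for making ribosomes and charging tRNAs were mostly lower. Genes for building sterols were lower more often than higher, and all of these median differences were smallest with BAFF. None of these genes passed the limma test on FPKM. The comparison took 6 of the 7 RNA sequencing libraries of the study: those of B cells of C57BL/6 background given anti-IgM, BAFF, or anti-IgM together with BAFF (called both here), at 8 h and at 30 h. The organ, the age of the mice and the way the B cells were isolated are not given in the sources used here. The 3 libraries at 30 h were set against the 3 at 8 h, each against the library of the same stimulus, so that no library entered more than 1 of the 3 pairs. The unstimulated library at 0 h lay outside the comparison and is given beside it. RNA was reverse transcribed from poly-dT primers. Each condition was 1 library, so the 3 pairs are 3 different treatments and not replicates of 1, and nothing in the labels says whether they came from separate mice or cultures. No library was cultured without a stimulus, and time in culture and duration of stimulation cannot be told apart.

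Anti-IgM binds the antigen receptor of B cells and stands in for antigen. BAFF is a TNF family cytokine that keeps mature B cells alive through its own receptor and the noncanonical NF-kappaB pathway. A resting B cell that is stimulated through its receptor first grows, making ribosomes, lipids and amino acids with MYC as a main driver, and only later enters S phase, when the E2F factors switch on the replication genes. Genes of G2 phase and mitosis follow, many of them held silent in resting cells by the DREAM complex, which binds a promoter element called CHR.

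Values are FPKM, fragments per kilobase of transcript scaled to the mapped reads of the library, summed over the transcripts of at least 300 bases assembled for a gene in a library. Of 11323 genes assembled in at least 1 of the 6 libraries, 9374 were assembled in all 6 with a mean of at least 1 FPKM and were compared, and 1949 were assembled in 1 to 5 of them. A difference is log2(FPKM + 1) at 30 h minus the same at 8 h, which understates the fold of low genes, and a mean difference is given over the 3 pairs with its SD (n = 3 pairs). Values of the 3 stimuli are always given in the order anti-IgM, BAFF and both. A second measure takes the reads of every assembled piece that lie over the exons of a gene, worked back from the same FPKM and over either strand; it counts short pieces too, and is not independent of the FPKM. Mapped reads per library, estimated from the FPKM intervals, ran from 17200000 to 26400000.

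With 3 pairs and 2 residual degrees of freedom, the limma test on FPKM passed no gene at a Benjamini-Hochberg adjusted p under 0.05: 0 of 9374 were called higher (0%) and 0 lower (0%), and the smallest adjusted p was 0.102. At an unadjusted p under 0.05 there were 916 higher and 1257 lower. By size alone, 83 genes (0.885%) were at least 2-fold higher in all 3 pairs and 30 genes (0.32%) at least 2-fold lower. The limma test on reads over exons passed 607 genes as higher (6.48%) and 542 as lower (5.78%), and 74 of the 83 and 25 of the 30 were among them. An interval for each gene was built from the Cufflinks confidence intervals of its transcripts, whose variances were added as if independent. In all 83 and in 29 of the 30, these gene intervals did not overlap in any pair. In 80 and 28 the 3 libraries at 30 h lay entirely outside the range of the 3 at 8 h. At the edge of the 2-fold rule, the smallest of the 3 differences was 1.01 for Bfsp2 and 1.02 for Lck just inside it, and 0.99 for Nsmce1 and Cd79b just outside. In the other direction it was -1.01 for Ttc27 and -1.02 for 4933439F18Rik inside, and -0.99 for Plbd2 and A130040M12Rik outside. The exon-read calls depended on single pairs. Without the anti-IgM pair they were 120 higher and 36 lower, without the BAFF pair 1831 and 2525, and without the pair of both stimuli 0 and 0. With median-of-ratios scaling they were 584 higher and 332 lower. A difference of the same sign in all 3 pairs was common, in 1897 genes higher (20.2%) and 2839 genes lower (30.3%), and the median over all genes tested was -0.06. In what follows, passed means the exon-read test over all 9374 genes.

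The size of the time difference varied with the stimulus. At least 2-fold differences in a single pair were counted in 708 genes higher and 493 lower with anti-IgM, 318 and 360 with BAFF, and 524 and 632 with both. Of the 83 genes higher in all pairs the median difference was 2.13 with anti-IgM, 1.40 with BAFF and 2 with both. Of the 30 lower it was -1.57, -1.46 and -1.66. BAFF gave the smallest of the 3 differences for 62 of the 83 and 15 of the 30. Across all genes, in reads over exons, the differences of anti-IgM and both had a Pearson r of 0.852, those of anti-IgM and BAFF 0.584, and those of BAFF and both 0.575; with FPKM these were 0.575, 0.304 and 0.297. These are descriptions over genes, which are not independent replicates, of 3 differences that share no library.

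**Figure D1:**
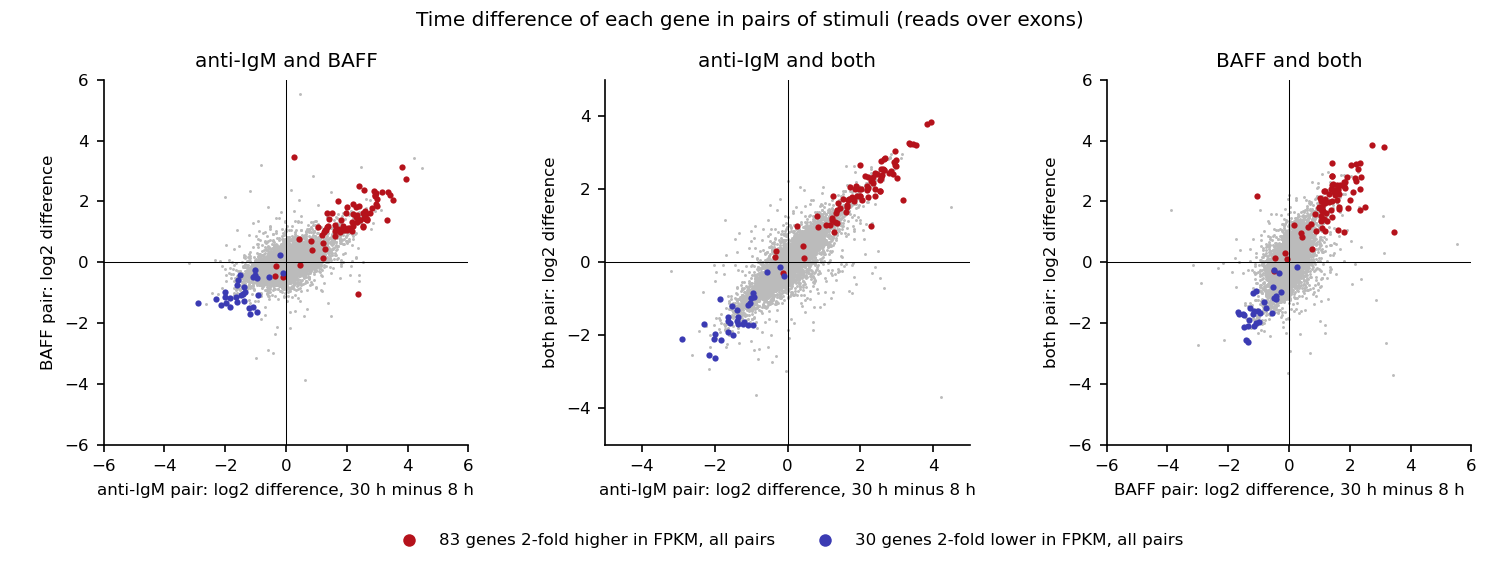
Difference between 30 h and 8 h in log2 of reads over exons for 9374 genes, 1 point per gene, in each combination of 2 stimuli; red, the 83 genes at least 2-fold higher in FPKM in all 3 pairs, and blue, the 30 at least 2-fold lower. Points follow the diagonal most closely for anti-IgM and both (r of 0.852), and the BAFF axis is the more compressed in the 2 panels that hold it.

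Of the 83 genes higher in all pairs, 42 were in the lists of replication, nucleotide, mitosis, repair, histone and DNA methylation genes, and of the 30 lower, none. In that order the 6 lists held 39, 12, 49, 21, 16 and 10 of the 9374 genes compared. With lists so small, finding none among 30 genes says little. Psrc1, a spindle protein among the 30, is in none of the 6 lists. By the rule that ranks genes on the smallest of their 3 differences, the 12 highest, clone names left out, were Ttll3, Rrm2, Cdk1, Top2a, Birc5, Uhrf1, Kif11, Mki67, Ube2c, Cdca3, Ccna2 and Stmn1. Rrm2, the small subunit of the enzyme that makes deoxynucleotides, was at 2.82, 3.95 and 6.21 FPKM at 8 h and 57.1, 30.7 and 52.1 FPKM at 30 h. That is a mean difference of 3.16 ± 0.67, with all 3 libraries at 30 h above all 3 at 8 h. Cdk1, the kinase that drives entry into mitosis, was at 3.13, 3.59 and 3.81 FPKM at 8 h and 40.5, 25.5 and 35.1 FPKM at 30 h, a mean difference of 2.92 ± 0.40. Mki67, which codes for the proliferation marker Ki-67, was at 2.22, 3.53 and 2.61 FPKM at 8 h and 34.1, 19.3 and 30.4 FPKM at 30 h, a mean difference of 2.91 ± 0.66. In the unstimulated library the FPKM of these 3 genes was 7.29, 4.54 and 5.595, so that the libraries at 8 h were below it and those at 30 h above. Top2a, the topoisomerase that untangles sister chromatids, was at 5.59, 7.25 and 11.1 FPKM at 8 h and 66.3, 40.1 and 61.7 FPKM at 30 h. Stmn1, which binds tubulin and destabilizes microtubules, had the highest FPKM of the 12 at 30 h, with 275, 107 and 223 against 22.5, 25.4 and 24.9 at 8 h. Uhrf1, which brings the maintenance methyltransferase to newly copied DNA, was at 11.3, 6.97 and 9.19 FPKM at 8 h and 91.3, 36.8 and 82.5 FPKM at 30 h. All 12 passed on reads over exons.

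Ttll3, a tubulin glycylase, had the largest difference in FPKM, with 1.01, 5.58 and 3.63 FPKM at 8 h and 75.1, 70.2 and 83.4 FPKM at 30 h, and a smaller one in reads over exons (1.70 against 4.29). It lies within 1000 bases of Arpc4 and Rpusd3, which were also expressed. The strand of the reads is not given in the sources used here, and reads of close neighbours cannot be assigned with certainty. Cdca3 lies as close to Usp5 and Ccna2 to Exosc9. Of the 83 genes, 26 had such a neighbour, and of the 30, 3.

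**Figure D2:**
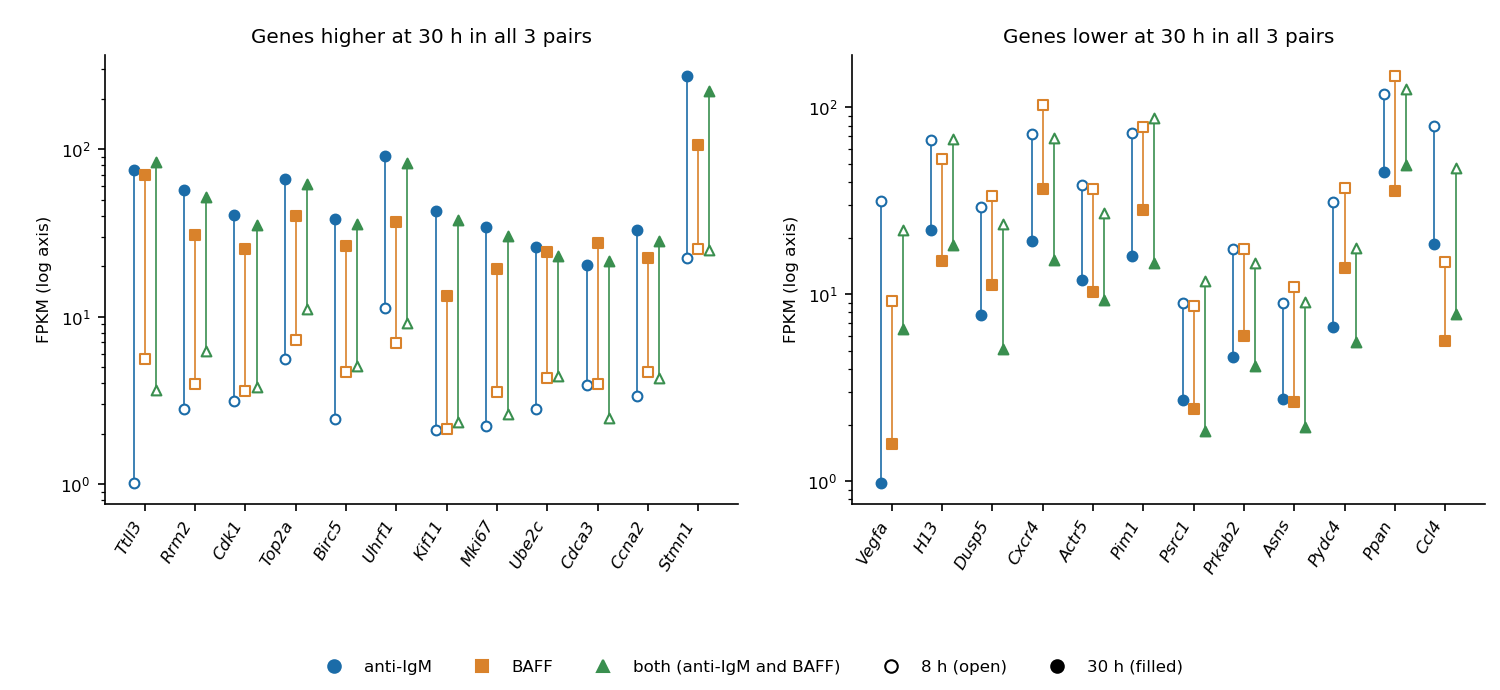
FPKM on a log axis of the 12 genes ranked highest in each direction, open symbols at 8 h and filled symbols at 30 h, joined for each stimulus. Every filled symbol lies above its open symbol for the genes higher at 30 h and under it for the genes lower at 30 h; Stmn1 reaches 275 FPKM with anti-IgM at 30 h and Vegfa is at 0.975 with anti-IgM at 30 h.

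Replication genes were higher at 30 h almost throughout. Of 44 listed, all were assembled somewhere and 39 could be compared. The difference had the same positive sign in all 3 pairs in 36 of them, 8 were at least 2-fold higher in every pair, 35 passed as higher and none as lower. The median difference over the list was 1.18 (pairs 1.65, 0.75 and 1.45), against -0.06 over all genes. Gmnn, which codes for the licensing inhibitor geminin, was at 9.44, 9.29 and 8.87 FPKM at 8 h and 59.5, 30.8 and 52.97 FPKM at 30 h. Lig1, the ligase that joins Okazaki fragments, was at 9.42, 10.2 and 8.94 FPKM at 8 h and 62.8, 28.7 and 63.97 FPKM at 30 h. Mcm3, a subunit of the replicative helicase, was at 28.6, 24.6 and 26.2 FPKM at 8 h and 107, 54.7 and 108 FPKM at 30 h. In each of these the BAFF library at 30 h was the lowest of its time and still above every library at 8 h.

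The other subunits of the MCM helicase had the same order of values. Mcm7 was at 18.3, 20.2 and 18.3 FPKM at 8 h and 72.2, 48.1 and 83.04 FPKM at 30 h, Mcm4 at 17.2, 20.03 and 17.1 FPKM at 8 h and 77.6, 40.8 and 69.3 FPKM at 30 h, and Mcm6 at 40.4, 26.7 and 37.2 FPKM at 8 h and 129, 57.7 and 124 FPKM at 30 h. Mcm5 was at 33.7, 27.1 and 34.8 FPKM at 8 h and 109, 52.5 and 101 FPKM at 30 h and Mcm2 at 23.5, 15.1 and 21.7 FPKM at 8 h and 45.2, 33.3 and 57.9 FPKM at 30 h. All 6 subunits passed. Pcna, the sliding clamp, had higher levels than the helicase subunits already at 8 h, with 171, 83.1 and 117 FPKM at 8 h and 312, 178 and 239.5 FPKM at 30 h, and a smaller difference (1.00 ± 0.12). Cdt1, the licensing factor that geminin binds, was at 15.5, 14.6 and 13.6 FPKM at 8 h and 15.6, 15.1 and 19.6 FPKM at 30 h and did not pass. Pold2, a subunit of DNA polymerase delta, had a mean difference of -0.02 ± 0.32 and did not pass either.

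The 5 replication genes left were not compared because some libraries had no assembled transcript, and each was assembled in more libraries at 30 h than at 8 h. Cdc6, the helicase loader, was at 21.2, 8.27 and 14.1 FPKM at 30 h and was assembled in 1 library at 8 h, at 1.04 FPKM with anti-IgM. Gins2 and Rfc4 were assembled at 30 h with anti-IgM and with both, but not with BAFF. A transcript that is not assembled is not a level of 0, and no fold is given.

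Only 4 genes of deoxynucleotide synthesis passed. Rrm2 was the first of them, and Dut (which removes dUTP, 17.6, 19.4 and 21.5 FPKM at 8 h and 53.7, 40.7 and 81.3 FPKM at 30 h) and Rrm1 (the large reductase subunit, 18.5, 18.7 and 17.8 FPKM at 8 h and 55.9, 34.2 and 50.97 FPKM at 30 h) were higher in every pair and passed. The other 8 of the 12 compared did not pass, and the list's median was -0.01. Among them Ctps, which makes CTP, was at 41.02, 17.4 and 42.5 FPKM at 8 h and 23.2, 16.1 and 19.8 FPKM at 30 h, lower in each pair. Tyms, thymidylate synthase, was at 78.5, 179 and 5.49 FPKM at 8 h and 21.5, 15.1 and 39.4 FPKM at 30 h, an irregular series whose mean difference was -0.89, against -0.09 in reads over exons.

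Mitotic genes gave the highest list median. Of 61 listed, 49 could be compared: 24 were at least 2-fold higher in all 3 pairs, 42 passed as higher and none as lower, and the median difference was 1.53 (pairs 1.98, 1.06 and 1.58). The median level of the members was 5.49 FPKM at 0 h, 3.89, 5.38 and 4.33 FPKM at 8 h and 20.3, 13.1 and 18.8 FPKM at 30 h, so that the list was at its lowest at 8 h with anti-IgM and with both. Kif11, the motor that separates spindle poles, was at 2.104, 2.13 and 2.33 FPKM at 8 h and 42.8, 13.3 and 37.6 FPKM at 30 h. Birc5 (survivin) and Aurkb, partners in the chromosomal passenger complex, had like values: Birc5 was at 2.44, 4.69 and 5.09 FPKM at 8 h and 38.5, 26.5 and 35.8 FPKM at 30 h, and Aurkb at 5.64, 6.28 and 3.56 FPKM at 8 h and 28.3, 17.6 and 28.8 FPKM at 30 h. Ube2c and Cdc20, which drive the destruction of cyclins by the anaphase-promoting complex, were higher in each pair as well. Ube2c was at 2.81, 4.31 and 4.44 FPKM at 8 h and 26.1, 24.3 and 22.9 FPKM at 30 h, and Cdc20 at 4.54, 4.31 and 4.76 FPKM at 8 h and 13.7, 13.1 and 14.8 FPKM at 30 h. For Ube2c and Cdc20 the BAFF library at 30 h was as high as the other libraries of that time.

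Ccnb1 (cyclin B1), the partner of Cdk1, was at 2.08, 2.31 and 4.61 FPKM at 8 h and 13.3, 11.3 and 11.1 FPKM at 30 h. Ccna2 (cyclin A2) was at 3.36, 4.69 and 4.27 FPKM at 8 h and 32.9, 22.5 and 28.4 FPKM at 30 h. Racgap1, needed for cytokinesis, was highest with BAFF at 30 h, at 4.74, 5.38 and 4.601 FPKM at 8 h and 16.2, 30.4 and 13.6 FPKM at 30 h. The 7 mitotic genes that did not pass included Bub3 (38.6, 35.3 and 48.1 FPKM at 8 h and 50.9, 41.1 and 48.6 FPKM at 30 h) and Cenpa (30.8, 15.8 and 23.3 FPKM at 8 h and 31.5, 13.8 and 31.5 FPKM at 30 h), which were already well expressed at 8 h. Pttg1 (securin) was the 1 member lower in all 3 pairs, with 34.9, 26.1 and 32.7 FPKM at 8 h and 21.4, 21.9 and 19.8 FPKM at 30 h, and did not pass. Each of the 12 mitotic genes that could not be compared was assembled in all 3 libraries at 30 h and in fewer at 8 h. Aurka was at 16.8, 10.002 and 14.5 FPKM at 30 h and Ccnb2 at 14.7, 12.1 and 13.3 FPKM, Ccnb2 being assembled at 8 h with both stimuli alone, at 3.12 FPKM.

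Among genes seen at 1 time only, with at least 5 FPKM in all 3 libraries of that time and no assembled transcript in the 3 of the other, 11 of 16 were seen at 30 h. Hist1h3c, Hist1h3e and Hist1h4d, replication-dependent histone genes of the Hist1 cluster, were among them. Hist1h3c was at 10.1, 6.33 and 9.46 FPKM at 30 h, with no assembled piece over its exons at 8 h. Most transcripts of such histone genes carry no poly(A) tail and histone genes are near copies of each other, and the libraries were primed with poly-dT, which limits what these levels mean. Kif14 and Ska1, both of the mitotic spindle, Mastl, a kinase of mitotic entry, and Lrr1, which acts in the removal of the replicative helicase, were the others with a role in the cycle. Of the 11, Fuz had reads over its exons in all 3 libraries at 8 h and Trim41 in 1, and the other 9 had none. Of the 5 seen at 8 h only, Hdac10, Rprd2, Sipa1 and 2310003C23Rik still had assembled pieces over their exons at 30 h. H2-Q7, with 145, 191 and 203 FPKM at 8 h, belongs to a family of class I genes too alike to be separated with certainty.

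**Figure D3:**
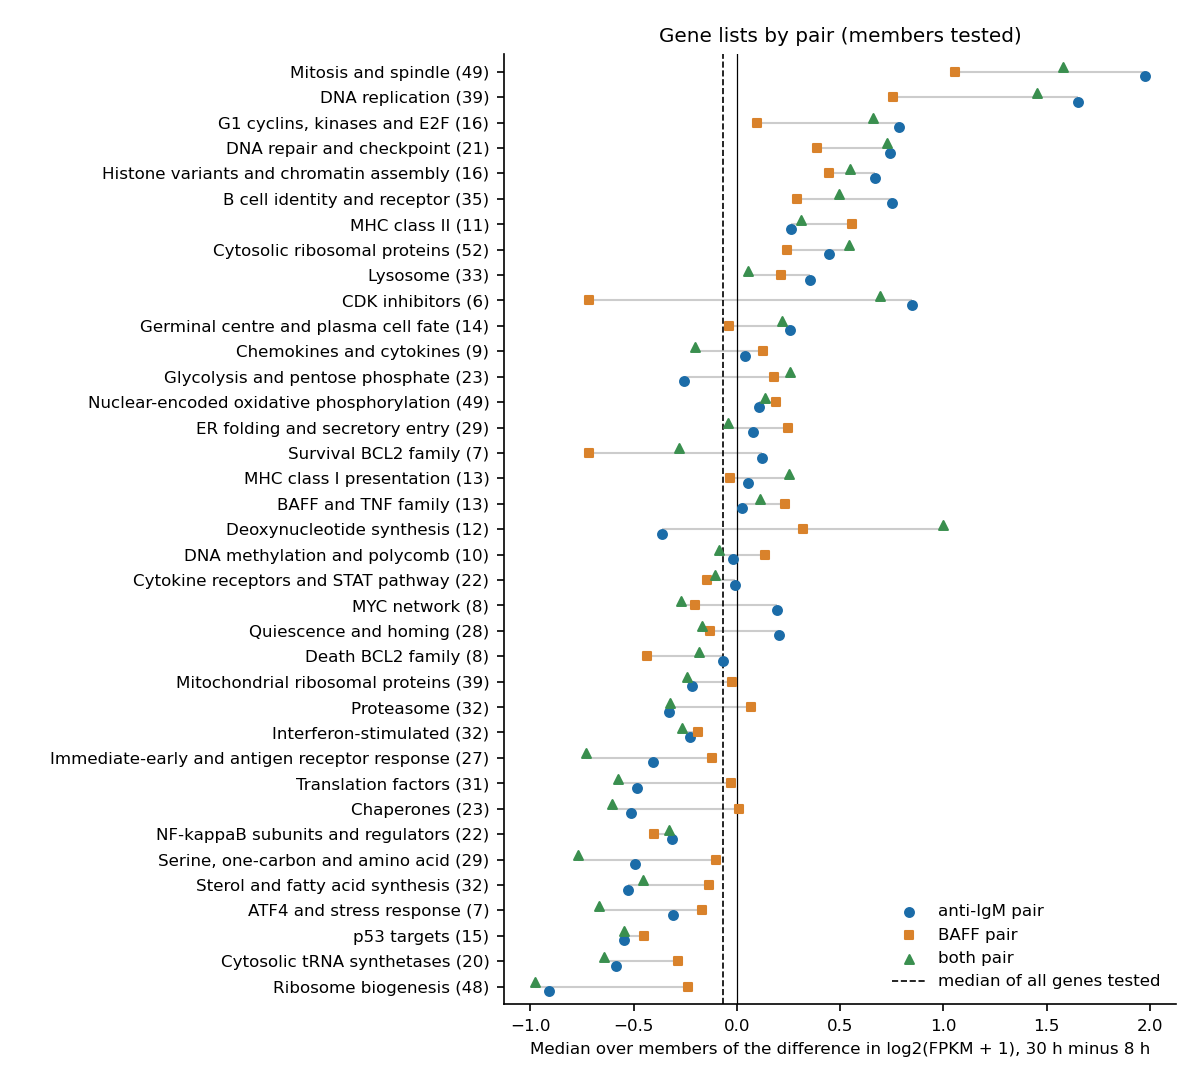
Median over list members of the difference in log2(FPKM + 1) between 30 h and 8 h, 1 symbol per pair, for the lists with at least 6 members compared (number in parentheses); the dashed line is the median over all genes tested, -0.06. Mitosis (1.53 over the 3 pairs) and DNA replication (1.18) stand at the top and ribosome biogenesis (-0.68) at the bottom, and the BAFF symbol is the nearest to 0 in each of these.

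Genes for packaging and marking new DNA were higher in part. Of 16 histone variant and chromatin assembly genes compared, 10 passed as higher and none as lower, with a median of 0.57. Asf1b, the histone chaperone, was at 5.42, 5.71 and 5.56 FPKM at 8 h and 37.97, 17.4 and 32.8 FPKM at 30 h, and H2afz, the histone variant H2A.Z, at 142, 137 and 170.04 FPKM at 8 h and 274, 234 and 318 FPKM at 30 h. Of 10 DNA methylation and polycomb genes, the 3 that passed were Uhrf1, Dnmt1 (the maintenance methyltransferase, 28.7, 19.8 and 15.9 FPKM at 8 h and 76.2, 86.7 and 70.6 FPKM at 30 h) and Ezh2 (the methyltransferase of polycomb complex 2, 23.3, 20.4 and 26.1 FPKM at 8 h and 57.4, 42.7 and 59.5 FPKM at 30 h). Suz12, a core partner of Ezh2, was at 50.8, 45.1 and 56.2 FPKM at 8 h and 51.4, 51.5 and 53.8 FPKM at 30 h, a mean difference of 0.05 ± 0.13, which did not pass. The list's median was -0.01, and the 3 enzymes stood apart from it.

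Of 21 repair and checkpoint genes compared, 13 passed as higher and none as lower, with a median of 0.61. Chek1, the replication checkpoint kinase, was at 4.01, 1.799 and 6.38 FPKM at 8 h and 14.2, 7.25 and 14.2 FPKM at 30 h. Parp1, which senses strand breaks, was at 129, 163 and 132 FPKM at 8 h and 130.5, 135 and 143 FPKM at 30 h and did not pass. Brca1 and Brca2 passed on reads over exons (1.53 and 1.14), while in FPKM their signs differed between pairs, and their levels are uncertain for that reason.

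Genes that decide entry into S phase were higher in part, and little so with BAFF. Of 16 G1 cyclins, kinases and E2F genes, 6 passed as higher, none as lower and none was 2-fold higher in every pair, with a median of 0.64 (pairs 0.79, 0.10 and 0.66). Without the anti-IgM pair that median was 0.39. Tfdp1, the partner of the E2F factors, was at 38.1, 16.98 and 39.4 FPKM at 8 h and 68.02, 38.9 and 71.2 FPKM at 30 h. E2f3, an activating E2F, was at 3.66, 2.97 and 3.99 FPKM at 8 h and 8.09, 7.61 and 7.49 FPKM at 30 h. Ccnd2 (cyclin D2), with 42.9, 24.9 and 41.4 FPKM at 8 h and 66.2, 26.5 and 59.6 FPKM at 30 h, and Cdk4, with 209, 82.4 and 206 FPKM at 8 h and 171, 89.2 and 166 FPKM at 30 h, did not pass. Both genes were lower with BAFF than with the other stimuli at either time. E2f8, an E2F that represses, was assembled in all 3 libraries at 30 h (10.6, 5.49 and 8.51 FPKM) and in 2 at 8 h.

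Inhibitors of cyclin-dependent kinases did not move as 1 group. Cdkn2d (p19) was at 3.22, 10.6 and 2.46 FPKM at 8 h and 15.9, 23.3 and 11.97 FPKM at 30 h and Cdkn2c (p18) at 3.82, 5.84 and 3.32 FPKM at 8 h and 16.6, 12.4 and 8.84 FPKM at 30 h, and both passed as higher. Cdkn1a (p21), a target of p53, was at 14.9, 11.6 and 17.2 FPKM at 8 h and 3.89, 4.99 and 10.3 FPKM at 30 h and passed as lower. Cdkn1b (p27) was at 27.6, 126 and 24.4 FPKM at 8 h and 88.2, 46.98 and 70.7 FPKM at 30 h, higher at 30 h with anti-IgM and both and lower with BAFF.

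Promoter sequences of 4 of these genes are shown, picked by the smallest of their 3 differences in the replication and mitosis lists. They are the 250 bases before the annotated start in RefSeq (assembly GRCm38.p6, the mm10 of the files), 5′ to 3′ on the strand of the gene, with matches to a motif in capitals. The motifs searched on both strands, overlaps allowed, were the CCAAT box (CCAAT), bound by the factor NF-Y, the CHR (TTTGAA), an E2F motif (TTTNNCGC), the E-box (CACGTG), bound by MYC with MAX, and a sterol regulatory element (TCACNCCAC). Lig1 (chr7:13276925-13277174, plus strand, 1 of 3 starts listed and 138 bases from the start of the deposited transcript) held none of them, Mcm7 (chr5:138171884-138172133, minus strand, 1 of 2 starts listed) held CCAAT boxes and an E2F motif, Cdk1 (chr10:69352913-69353162, minus strand) held CCAAT boxes, CHR and E2F motifs, and Top2a (chr11:99024190-99024439, minus strand) held CCAAT boxes and CHR. Gmnn, which ranks before Lig1 by the smallest of its 3 differences, was not in the table. The promoters of Fasn and Lss, sterol genes lower at 30 h, are not printed. Fasn held CCAAT boxes and an E2F motif, and Lss a CCAAT box.
Lig1: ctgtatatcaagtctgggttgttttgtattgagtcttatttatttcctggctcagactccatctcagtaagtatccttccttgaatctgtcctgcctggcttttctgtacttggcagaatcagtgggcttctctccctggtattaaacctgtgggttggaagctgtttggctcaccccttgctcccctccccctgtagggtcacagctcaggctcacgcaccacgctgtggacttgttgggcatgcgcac
Mcm7: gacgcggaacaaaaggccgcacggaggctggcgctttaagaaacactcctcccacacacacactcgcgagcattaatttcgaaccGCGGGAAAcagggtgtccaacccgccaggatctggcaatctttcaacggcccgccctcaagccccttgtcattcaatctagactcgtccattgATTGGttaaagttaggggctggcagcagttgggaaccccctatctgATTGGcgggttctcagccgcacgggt
Cdk1: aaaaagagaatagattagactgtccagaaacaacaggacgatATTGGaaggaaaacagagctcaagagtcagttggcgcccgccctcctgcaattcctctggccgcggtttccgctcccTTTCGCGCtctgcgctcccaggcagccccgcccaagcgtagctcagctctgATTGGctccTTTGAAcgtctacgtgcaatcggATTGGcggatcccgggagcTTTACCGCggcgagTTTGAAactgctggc
Top2a: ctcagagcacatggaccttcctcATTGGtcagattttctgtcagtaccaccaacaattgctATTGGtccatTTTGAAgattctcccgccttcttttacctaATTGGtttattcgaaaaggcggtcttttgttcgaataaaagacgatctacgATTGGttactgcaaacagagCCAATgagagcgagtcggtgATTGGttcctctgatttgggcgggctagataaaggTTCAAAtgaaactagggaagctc

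In the 300 bases around each start (250 before and 50 after), the CHR was found in 29 of 44 promoters of the mitotic genes compared (65.9%), in 5 of 35 of the replication genes (14.3%) and in 11.8% of the 9691 promoters of genes tested. The E2F motif was in 37.1% of the replication promoters and 20.5% of the mitotic ones, against 9% of genes tested. The CCAAT box was in 72.7% and 57.1% of mitotic and replication promoters, against 38.2%. It was also in 70.4% of the 27 sterol promoters, whose genes were lower more often than higher. The CHR was thus more frequent in the mitosis list and the E2F motif in the replication list. Both are known elements of such genes, so these shares describe the listed genes and not the time difference. The contrast was smaller in genes picked by their difference. By the 2-fold rule the CHR was in 24.1% of promoters of higher genes and 16.1% of lower, and E2F in 21.5% and 12.9%. Among genes that passed, the CHR was in 18.2% of the higher and 10.8% of the lower, and E2F in 13.8% and 7.31%. Among the genes that passed as lower, 16.6% of promoters had an E-box, against 9.90% of those that passed as higher and 10.6% of genes tested. By the 2-fold rule the E-box was in 3 of 31 promoters of the lower genes (9.68%) and 2 of 79 of the higher ones (2.53%). It was in 18.8% of the ribosome biogenesis promoters and 14.3% of the replication promoters. Over all 32851 promoters in the table, the shares were 17.9% for the CHR, 5.17% for E2F, 37.4% for CCAAT and 7.15% for the E-box. The sterol regulatory element was rare, in 1 of 27 sterol promoters (3.7%), 1 of 35 replication promoters (2.86%) and 1.09% of promoters of genes tested. Of the 9374 genes tested, 7632 were matched by name. A match says only that the letters are in the window.

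**Figure D4:**
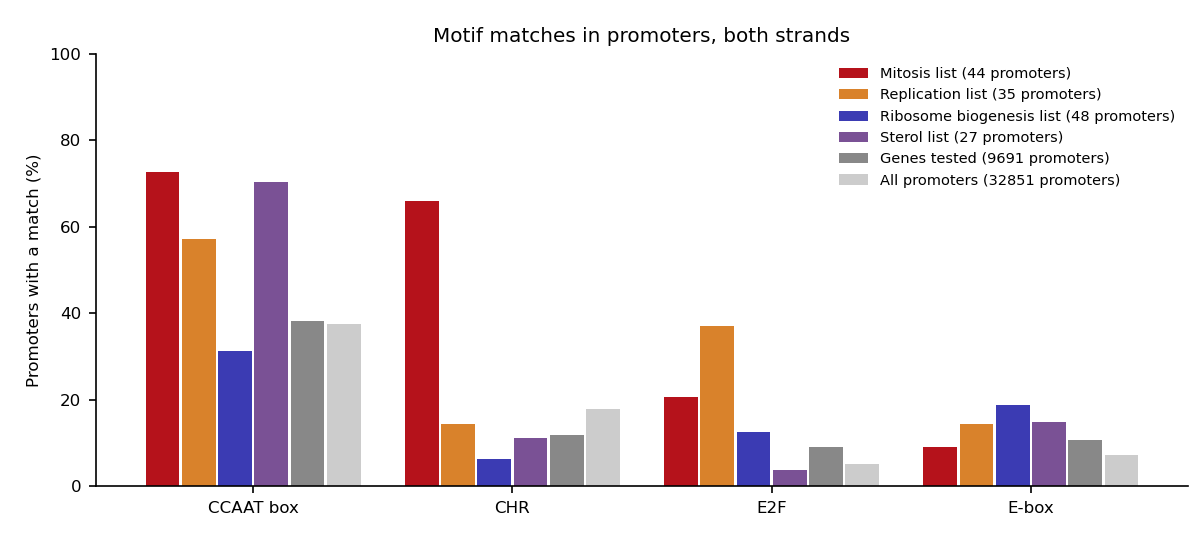
Share of promoters (300 bases, both strands) with a match to 4 motifs, as bars from 0, for 4 gene lists, the genes tested and all promoters in the RefSeq table. The CHR bar of the mitosis list is at 65.9% against 11.8% for genes tested, and the E2F bar of the replication list at 37.1% against 9%.

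Myc, which drives cell growth, was among the genes lower in all pairs. It was at 263, 64.7 and 264 FPKM at 8 h and 61.2, 29.8 and 59.9 FPKM at 30 h, a mean difference of -1.77 ± 0.58, and it was at least 2-fold lower in each pair and passed. With BAFF it was the lowest of the 3 at both times, and 143 FPKM were measured at 0 h. Mxd4, a repressor that competes with MYC for MAX, was at 13.7, 21.4 and 8.72 FPKM at 8 h and 68.8, 36.6 and 53.3 FPKM at 30 h, higher in every pair, and passed. Max was at 47.3, 49.6 and 52.5 FPKM at 8 h and 54.6, 44.8 and 45.4 FPKM at 30 h and did not pass.

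Ribosome biogenesis genes, many of which MYC is known to activate, had the lowest median of the lists with at least 6 genes compared, -0.68 (pairs -0.91, -0.24 and -0.98). Of 48 compared, 36 were lower in all 3 pairs and 1 higher, 14 passed as lower and none as higher, and none was 2-fold lower in every pair. Their median level was 26.4 FPKM at 0 h, 69.7, 35.2 and 73.8 FPKM at 8 h and 36.9, 31.4 and 35.8 FPKM at 30 h. With BAFF the level at 8 h was thus about as low as the levels at 30 h of the other stimuli, and the difference over time was small. Polr1b, the second largest subunit of RNA polymerase I, was at 40.7, 17.97 and 50.96 FPKM at 8 h and 16.9, 11.8 and 17.2 FPKM at 30 h. Nle1, which acts in the maturation of the large subunit, was at 45.5, 22.5 and 46.7 FPKM at 8 h and 20.9, 13.3 and 18.8 FPKM at 30 h, and Tsr1, which acts on the small subunit, at 129.8, 71.7 and 137 FPKM at 8 h and 58.1, 48.3 and 62.2 FPKM at 30 h. Npm1 (nucleophosmin) was at 1519, 673 and 1448 FPKM at 8 h and 1143, 766 and 1189 FPKM at 30 h and did not pass. Ppan, an assembly factor of the large subunit outside the list, was among the 12 genes lowest at 30 h, with 118, 148 and 125 FPKM at 8 h and 44.9, 35.9 and 48.9 FPKM at 30 h.

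Proteins of the ribosome itself went the other way in sign. Of 52 cytosolic ribosomal protein genes compared, 29 were higher in all 3 pairs and none was lower in all 3, with a median of 0.36, but only 2 passed, Rpl15 (224, 239 and 273 FPKM at 8 h and 437, 409.6 and 571 FPKM at 30 h) and Rps12 (836, 1485 and 2335 FPKM at 8 h and 2804, 2807 and 4591 FPKM at 30 h). These genes have many processed copies in the genome, which makes their levels uncertain. Translation factors, with -0.37 over 31 genes, and chaperones, with -0.41 over 23, had negative medians but no member that passed, and with BAFF both medians were near 0 (-0.03 and 0.01). Without the pair of both stimuli the median of the translation factors was -0.22.

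**Figure D5:**
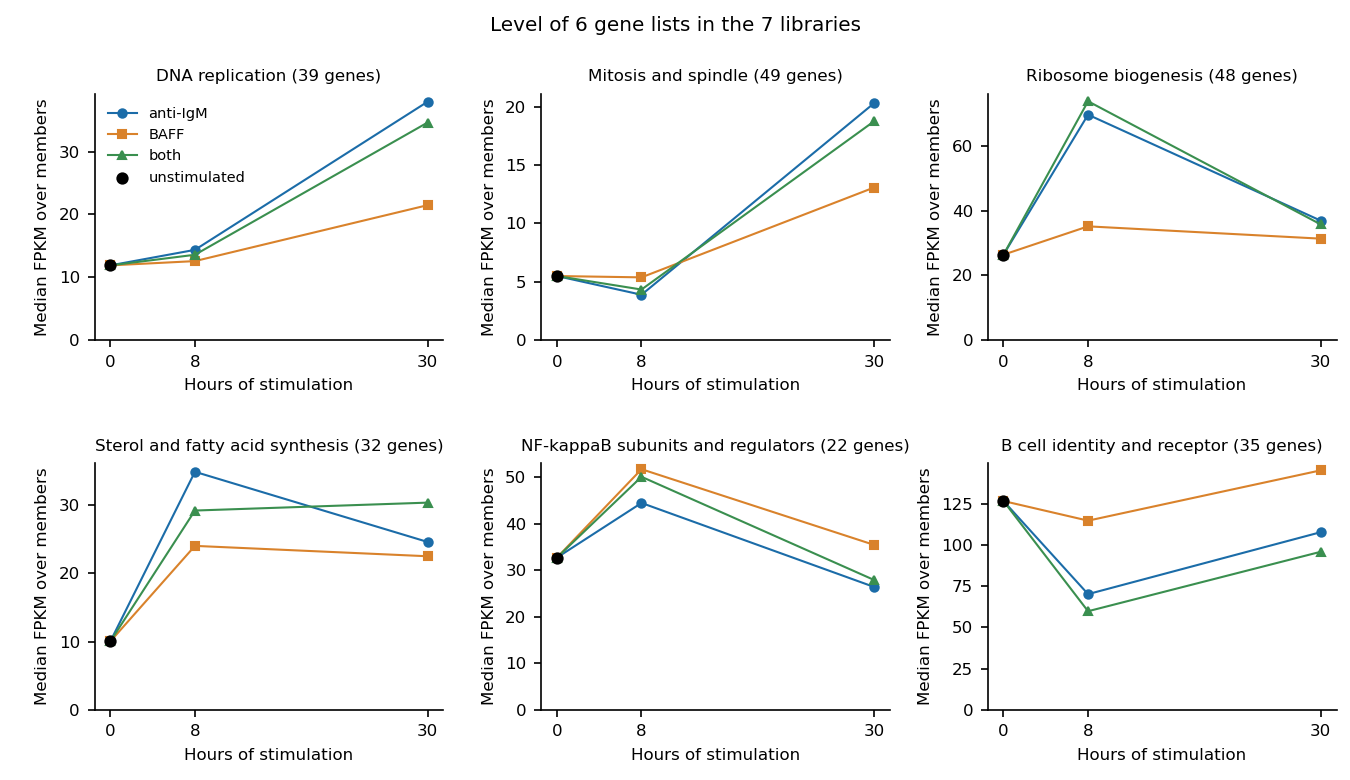
Median FPKM over the compared members of 6 gene lists in the 7 libraries, with hours of stimulation on the x axis and 1 line per stimulus from the shared unstimulated library (black). Replication and mitosis are highest at 30 h under each stimulus, ribosome biogenesis is highest at 8 h with anti-IgM (69.7 FPKM) and both (73.8), and B cell identity is lowest at 8 h.

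Cytosolic tRNA synthetases, which load amino acids onto tRNAs, had a median of -0.54 (pairs -0.58, -0.28 and -0.64): of 20, 13 were lower in all 3 pairs and 1 higher, and 7 passed as lower. Without the pair of both stimuli the median was -0.36. Yars, for tyrosine, was 2-fold lower in each pair, at 52.5, 66.8 and 46.1 FPKM at 8 h and 24.1, 20.8 and 20.9 FPKM at 30 h. Among 29 genes of serine, one-carbon and amino acid supply 9 passed as lower and 2 as higher, with a median of -0.42 (pairs -0.49, -0.10 and -0.77), or -0.24 without the pair of both stimuli. Asns, asparagine synthetase, was at 8.94, 11.01 and 9.15 FPKM at 8 h and 2.76, 2.66 and 1.95 FPKM at 30 h. Slc7a5, the main carrier of large neutral amino acids, was at 64.1, 30.8 and 64.3 FPKM at 8 h and 21.8, 17.6 and 22.3 FPKM at 30 h. Shmt2, the mitochondrial serine hydroxymethyltransferase, was at 151, 72.8 and 164 FPKM at 8 h and 61.8, 48.2 and 70.4 FPKM at 30 h. Paics, of purine synthesis, was 1 of the 2 that passed as higher, with 92.4, 62.7 and 87.9 FPKM at 8 h and 148, 85.3 and 131 FPKM at 30 h. Atf4, the factor known to activate many of these genes, was at 217, 165 and 209 FPKM at 8 h and 92.6, 106 and 81.5 FPKM at 30 h and passed as lower, as did its target Trib3 (7.59, 4.33 and 7.85 FPKM at 8 h and 1.76, 3.74 and 1.01 FPKM at 30 h). Ddit4, which restrains the growth kinase mTORC1, was in contrast 2-fold higher in every pair, with 23.4, 33.998 and 21.5 FPKM at 8 h and 61.3, 83.4 and 58.2 FPKM at 30 h.

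Sterol and fatty acid genes were lower more often than higher. Of 32 compared, 11 passed as lower and 3 as higher, with a median of -0.45 (pairs -0.53, -0.13 and -0.45), or -0.69 without the BAFF pair. Fasn, fatty acid synthase, was at 61.95, 62.9 and 63.9 FPKM at 8 h and 20.7, 20.97 and 27.3 FPKM at 30 h, at least 2-fold lower in each pair, but it did not pass. Hmgcs1, an early enzyme of sterol synthesis, was at 128, 87.2 and 139 FPKM at 8 h and 49.5, 51.7 and 68.6 FPKM at 30 h and passed. At 0 h Fasn and Hmgcs1 were at 13.02 and 20.7 FPKM, below all 6 stimulated libraries. The 3 that passed as higher were the desaturases Scd2 (20.5, 18.03 and 24.4 FPKM at 8 h and 77.9, 35.7 and 139 FPKM at 30 h), Fads1 and Fads2, which put double bonds into fatty acids. Of these, Fads1 did not have the same sign in every pair in FPKM.

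The NF-kappaB list had no member higher in all 3 pairs and 17 of 22 lower, with a median of -0.41 that was similar in the 3 pairs (-0.31, -0.40 and -0.33), and 5 passed as lower. All 5 are inhibitors or regulators that NF-kappaB itself induces or that bind it. Nfkbiz was at 56.4, 21.3 and 51.4 FPKM at 8 h and 13.7, 10.8 and 12.3 FPKM at 30 h, Nfkbid at 113, 90.8 and 101 FPKM at 8 h and 59.1, 41.6 and 41.9 FPKM at 30 h, and Tnfaip3 (A20) at 54.3, 36.4 and 57.3 FPKM at 8 h and 22.9, 21.9 and 25.2 FPKM at 30 h. The other members of the 5 were Nfkbib and Birc3. The subunit genes had smaller differences that did not pass: Rel was at 140.02, 85.6 and 143 FPKM at 8 h and 114, 48.9 and 105 FPKM at 30 h, Relb at 63.2, 101 and 63.1 FPKM at 8 h and 45.6, 60.1 and 51.3 FPKM at 30 h, and Nfkb2 at 147, 184 and 198 FPKM at 8 h and 66.1, 134 and 183 FPKM at 30 h. Rela was at 44.4, 57.9 and 55.2 FPKM at 8 h and 39.97, 44.1 and 40.004 FPKM at 30 h.

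Of 27 immediate-early and antigen receptor response genes, 9 passed as lower and 1 (Jund) as higher, with a median of -0.35, or -0.21 without the pair of both stimuli. Dusp5, a phosphatase of nuclear ERK, was at 29.2, 33.8 and 23.8 FPKM at 8 h and 7.79, 11.2 and 5.08 FPKM at 30 h, and Cd69, an early activation antigen, at 40.04, 22.9 and 38.4 FPKM at 8 h and 8.6001, 12.3 and 11.01 FPKM at 30 h. Nr4a1, a reporter of antigen receptor signalling, was at 204, 29.9 and 145 FPKM at 8 h and 48.3, 21.2 and 51.5 FPKM at 30 h. Irf4, which sets the response to receptor strength, was at 171, 82.99 and 155 FPKM at 8 h and 91.1, 58.8 and 69.03 FPKM at 30 h. Egr2 and Egr3 did not pass; Egr2 was at 67.2, 5.597 and 70.2 FPKM at 8 h and 82.4, 8.81 and 60.3 FPKM at 30 h, low with BAFF at both times. Fos and Egr1, the classic genes of the first hour of a response, were far higher in the unstimulated library than in any other. Fos was at 627 FPKM at 0 h, 3.69, 7.22 and 2.503 FPKM at 8 h and 2.38, 1.63 and 1.28 FPKM at 30 h. Egr1 was at 264 FPKM at 0 h, 61.6, 14.7 and 59.9 FPKM at 8 h and 45.9, 28.2 and 35.8 FPKM at 30 h, and had no common sign between pairs.

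Genes of survival and cytokine signalling were lower or higher by member. Pim1, a serine kinase induced by cytokines, was at 72.8, 78.5 and 88.3 FPKM at 8 h and 16.1, 28.3 and 14.8 FPKM at 30 h, a mean difference of -2.02 ± 0.54. Pim3 was at 39.8, 25.2 and 42.05 FPKM at 8 h and 11.5, 10.8 and 12.2 FPKM at 30 h, and Pim2 at 52.2, 99.1 and 58.8 FPKM at 8 h and 65.7, 59.8 and 93.9 FPKM at 30 h, with no common sign. Bcl2l1 (BCL-xL), which guards against apoptosis, was at 50.3, 13.9 and 50.7 FPKM at 8 h and 33.1, 6.38 and 20.4 FPKM at 30 h, and its relative Bcl2 at 6.26, 14.8 and 6.74 FPKM at 8 h and 12.4, 20.8 and 13.99 FPKM at 30 h, and Bcl2l1 passed as lower and Bcl2 as higher. Il2ra, the alpha chain of the IL-2 receptor, was at 43.2, 14.6 and 37.6 FPKM at 8 h and 13.5, 5.71 and 9.33 FPKM at 30 h. Stat6 and Stat5a passed as lower, with mean differences of -0.89 ± 0.20 and -0.71 ± 0.33.

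Genes of the p53 response were lower in 11 of 15 cases in all 3 pairs and higher in none, with a median of -0.48 (pairs -0.55, -0.45 and -0.55), and 6 passed as lower. Bbc3 (PUMA), which triggers apoptosis, was at 15.1, 8.16 and 14.8 FPKM at 8 h and 5.96, 4.23 and 5.49 FPKM at 30 h. Phlda3, which restrains AKT, was at 6.06, 3.05 and 7.61 FPKM at 8 h and 1.11, 1.61 and 0.863 FPKM at 30 h, and Cdkn1a is given above. Trp53 itself was at 84.3, 89.5 and 95.4 FPKM at 8 h and 80.9, 49.2 and 82.9 FPKM at 30 h and did not pass.

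Among 9 chemokines and cytokines compared, 1 passed as higher and 1 as lower. Ccl22, which draws T cells through CCR4, was at 11.99, 25.04 and 15.7 FPKM at 8 h and 40.8, 103 and 68.3 FPKM at 30 h, highest with BAFF at both times, a mean difference of 1.91 ± 0.20. Ccl4, an inflammatory chemokine, was at 79.8, 14.97 and 47.4 FPKM at 8 h and 18.7, 5.64 and 7.81 FPKM at 30 h, lowest with BAFF at both times, a mean difference of -1.92 ± 0.60. Cxcr4, the receptor that holds B cells in the marrow and the dark zone, was at 72.3, 103 and 68.998 FPKM at 8 h and 19.4, 36.7 and 15.2 FPKM at 30 h, and it was at 479 FPKM at 0 h. Ccr7, which guides cells to T cell zones, was at 332, 313 and 397 FPKM at 8 h and 205, 113 and 149.96 FPKM at 30 h. Cxcr4 was thus lowest of all at 30 h, and Ccr7 at 30 h was below each 8 h library. Both passed as lower. S1pr1, the egress receptor, was at 19.02, 59.1 and 13.3 FPKM at 8 h and 20.8, 67.6 and 9.48 FPKM at 30 h with no common sign, and in the quiescence and homing list as a whole 4 of 28 passed as lower and none as higher.

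Interferon-stimulated genes were unevenly lower: 16 of 32 were lower in all 3 pairs and 1 higher, and 5 passed as lower, with a median of -0.30. Irf7, their amplifying factor, was at 35.2, 37.2 and 33.1 FPKM at 8 h and 6.61, 20.01 and 8.11 FPKM at 30 h, and Ifit3 at 11.01, 14.9 and 10.7 FPKM at 8 h and 2.25, 6.19 and 2.37 FPKM at 30 h. The remaining genes of the 12 lowest were Vegfa (31.4, 9.17 and 22.2 FPKM at 8 h and 0.975, 1.58 and 6.49 FPKM at 30 h), a growth factor for vessels, Psrc1, a spindle protein, with 9.03, 8.63 and 11.8 FPKM at 8 h and 2.704, 2.45 and 1.87 FPKM at 30 h, Prkab2, a subunit of the energy sensor AMPK, Pydc4, H13 and Actr5. For H13 and Actr5 the reads over exons differed by -0.27 and -0.44 where FPKM gave -1.71 and -1.60, and neither passed.

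Genes of B cell identity were higher at 30 h. Of 35 compared, 21 were higher in all 3 pairs and 5 lower, 13 passed as higher and none as lower, with a median of 0.51 (pairs 0.75, 0.29 and 0.49). Cd22, an inhibitory receptor of B cells, was at 353 FPKM at 0 h, 50.8, 167 and 50.1 FPKM at 8 h and 137, 263 and 122 FPKM at 30 h. Ms4a1 (CD20) was at 443 FPKM at 0 h, 125, 250.3 and 135 FPKM at 8 h and 239.5, 402 and 299.6 FPKM at 30 h. Pax5, the factor that maintains the lineage, was at 101 FPKM at 0 h, 50.8, 111 and 53.9 FPKM at 8 h and 106, 145 and 95.8 FPKM at 30 h. Cd22 and Ms4a1 passed and Pax5 did not. With anti-IgM and with both, the 3 genes were lowest at 8 h. Cd79b, a signalling chain of the antigen receptor, was at 178, 469.9 and 312 FPKM at 8 h and 816, 935 and 635 FPKM at 30 h, but the difference of 1.40 was 0.40 in reads over exons and did not pass. Fcer2a (CD23) was lower in all 3 pairs, at 141, 370.4 and 208 FPKM at 8 h and 96.7, 238 and 123 FPKM at 30 h, and did not pass.

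In the MHC class II list 7 of 11 were higher in all 3 pairs and 1 lower, with a median of 0.40, but only H2-Oa passed, and its sign in FPKM was not the same in each pair. Ciita, the master factor of class II, was at 13.8, 35.8 and 18.9 FPKM at 8 h and 15.6, 64.996 and 29.5 FPKM at 30 h and did not pass. H2-DMb1 was 2-fold higher in each pair, at 38.7, 86.02 and 35.5 FPKM at 8 h and 86.2, 219 and 114 FPKM at 30 h, without passing, and it is a close copy of its neighbour H2-DMb2. In the lysosome list 7 of 33 passed as higher and 1 as lower, with a median of 0.22, or 0.12 without the anti-IgM pair. Psap, the precursor of the saposins, was at 159, 218 and 137 FPKM at 8 h and 325, 391 and 296 FPKM at 30 h, and Tfeb, the factor that activates lysosomal genes, at 14.3, 24.01 and 13.9 FPKM at 8 h and 35.7, 38.1 and 34.9 FPKM at 30 h.

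Outside every list there were 33 of the 83 genes higher in all pairs and 18 of the 30 lower. The cytoskeleton and division genes among them included Tubb5, a beta tubulin, at 253, 163 and 266 FPKM at 8 h and 613, 343 and 568 FPKM at 30 h, and Cenph, of the kinetochore, at 4.46, 2.53 and 2.87 FPKM at 8 h and 21.4, 9.11 and 17.4 FPKM at 30 h. Vim (vimentin), the intermediate filament of blood cells, was at 87.6 FPKM at 0 h, 17.4, 43.5 and 17.7 FPKM at 8 h and 109.8, 101 and 71.2 FPKM at 30 h. Atp2a3, a calcium pump of the endoplasmic reticulum, was at 181 FPKM at 0 h, 42.7, 77.5 and 39.9 FPKM at 8 h and 158, 172 and 135 FPKM at 30 h. Both were below 0 h at 8 h under each stimulus. Sirpa, Cfp (properdin) and Ccr1, known from myeloid cells, were also higher in each pair, with Sirpa at 6.14, 3.76 and 5.62 FPKM at 8 h and 49.9, 10.1 and 23.4 FPKM at 30 h, Cfp at 3.95, 13.5 and 10.8 FPKM at 8 h and 20.3, 33.9 and 27.8 FPKM at 30 h, and Ccr1 at 3.26, 1.97 and 3.88 FPKM at 8 h and 14.7, 7.05 and 21.4 FPKM at 30 h.

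Among the 18 lower genes outside the lists, Anxa2 and S100a4, which bind calcium, were at 31.3, 42.6 and 29.8 FPKM at 8 h and 13.2, 14.3 and 8.77 FPKM at 30 h and at 35.2, 47.6 and 27.9 FPKM at 8 h and 11.01, 21.3 and 8.76 FPKM at 30 h, respectively. Il1b and Il1r2, an inflammatory cytokine and its decoy receptor, were low throughout: Il1b was at 8.78, 10.1 and 7.36 FPKM at 8 h and 3.26, 2.46 and 1.64 FPKM at 30 h, and Il1r2 at 12.3, 4.59 and 13.8 FPKM at 8 h and 4.16, 1.65 and 4.41 FPKM at 30 h. Ets2, a transcription factor downstream of ERK, was at 36.05, 47.6 and 35.5 FPKM at 8 h and 16.7, 16.7 and 10.2 FPKM at 30 h. Gnas, the stimulatory G protein subunit, was at 309.8, 276 and 298 FPKM at 8 h and 152, 123 and 145 FPKM at 30 h, the highest levels of the 18. All 6 passed, and in each of them every library at 30 h was below every library at 8 h. The genes outside the lists were picked after their values were seen.

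Some markers of macrophages were higher at 30 h. Of 20 macrophage markers 19 were assembled at 0 h, 10 or 11 at 8 h and 14 or 15 at 30 h, and their summed FPKM was 470.2 at 0 h, 48.99, 44.1 and 50.6 at 8 h and 131, 146 and 89.6 at 30 h. Cd5l was at 1.87, 3.64 and 3.02 FPKM at 8 h and 22.6, 22.01 and 11.6 FPKM at 30 h, Lyz2 at 2.52, 2.67 and 2.01 FPKM at 8 h and 16.8, 19.8 and 9.63 FPKM at 30 h, and Emr1 (F4/80) at 11.1, 11.3 and 5.44 FPKM at 8 h and 25.8, 48.2 and 31.2 FPKM at 30 h. These 3 are among the 83 genes higher in all pairs and were the only ones of the 8 macrophage markers compared with the same sign in each pair. The other 5 (Axl, Hmox1, Slc40a1, Spic and Vcam1) did not pass, and their mean differences ran from -0.32 to 0.44. C1qa, a complement gene of tissue macrophages, was assembled in no library at 8 h and stood at 2.604, 5.08 and 1.77 FPKM at 30 h. Of the 6 stimulated libraries, Marco and Mertk were likewise assembled in the 3 at 30 h alone, Cd14 in the 3 at 8 h alone, and Fcgr1 and Fcgr3 in none. All 6 of these genes were assembled at 0 h. The part of such cells in the higher B cell, class II and lysosome values was not tested. Bulk RNA cannot tell fewer cells of a type from less RNA per cell. The summed FPKM of the 35 B cell genes assembled was 6930 at 0 h, 3872, 6120 and 4651 at 8 h and 6291, 7331 and 6606 at 30 h, far above any other cell type. The sum of the T cell list was 36.7 at 0 h, 57.99, 26.4 and 56.6 at 8 h and 111, 50.4 and 104 at 30 h. Most of it was Lck (45.8, 14.9 and 44.8 FPKM at 8 h and 93.8, 35.04 and 91.7 FPKM at 30 h). Cd4, Cd3g and Zap70 were not assembled at 8 h. At 30 h Cd4 was at 1.14 FPKM with BAFF, Cd3g at 1.62 with anti-IgM, and Zap70 at 2.39 with anti-IgM and 2.94 with both. Cd8a was assembled in none of the 6 libraries, and Cd5 and Tcf7 did not pass. Neutrophil and stroma lists had no assembled member in any of the 6 libraries. The erythroid list had none with anti-IgM at 8 h or with both at either time, and otherwise up to 48.1 FPKM in sum. A sum counts only members that were assembled. The NK cell list summed to 2.27 to 8.19 FPKM, the platelet list to 3.12 to 20.4 and the plasma cell list to 49.5 to 73.1. The dendritic list summed to 126 to 159.6 FPKM, highest with BAFF at 8 h. Most of the dendritic sum was Cst3 (114, 148 and 125 FPKM at 8 h and 132, 133 and 109 FPKM at 30 h). Clec9a and Cd209a were assembled in none of the 6 libraries. Most of the plasma cell sum was Xbp1. Of these lists 1 gene of NK cells was among the 30 lower in all pairs.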

How the data were processed

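RNA of 7 libraries was reverse transcribed with SuperScript II from poly-dT primers and made into TruSeq libraries, per the labels' protocols. Whether the kit kept the strand is not given in the sources used here. Reads were processed with CASAVA 1.8.2, TopHat2 2.0.5, Bowtie2 2.0.0.7 and Cufflinks 2.0.2 against mm10, per the submitters' processing notes. The deposited files hold the transcripts that the authors assembled in each library apart, each with its FPKM, a confidence interval and a coverage, and no read counts, so depth was estimated from the intervals (17200000 to 26400000 mapped reads) and count tests were not used.

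FPKM of transcripts of at least 300 bases were summed per gene name, and pieces under 300 bases, which held 66.6% to 74.4% of all FPKM in a library, were left out. Gene names came from the merged transcript file that the authors deposited, and reads over exons were summed, over either strand, from all pieces that overlap the reference exons of a gene in it. Genes assembled in all 6 libraries with a mean of at least 1 FPKM were tested with limma 3.58.1 (R 4.3.3) on log2(FPKM + 1), with stimulus as a block, no further scaling and Benjamini-Hochberg adjustment over all 9374 genes. The samples share a stimulus within each pair, which is the source of the pairing, and no replicate numbers were given. P-values rest on the spread between these 3 pairs and measure no spread between replicates. The variance of each gene was moderated toward a trend over all genes. In the FPKM fit the prior had 2.415 degrees of freedom, against 2 residual ones. The limma test on reads over exons was added after the FPKM values were seen. Genes were named by the smallest of their 3 differences (12 in each direction, mean of at least 5 FPKM, same sign in reads over exons, clone names and predicted genes left out) and, in each list, by the same ranking and by what a result needed beside them. The members and the 46 lists were chosen with earlier results of these data known. Scripts were tested on simulated data. Other pseudocounts, scalings, filters, read measures and fits without the block or without 1 pair were tried. Python 3.11.15 with numpy 2.4.6, pandas 2.3.3 and matplotlib 3.10.9 made the tables and plots. Some members of the lists are counted but not reported by name here.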

Additional observations from a re-analysis of the deposited data

Results flagged for a closer look

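Inhibitors of cyclin-dependent kinases had medians of opposite sign. Over the 6 genes compared the median difference between 30 h and 8 h was -0.72 in the BAFF pair, against 0.85 in the anti-IgM pair and 0.69 in the pair of both stimuli. The difference between pairs was not tested, and the size above which opposite medians were listed was set after the values were seen.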

How the results depend on the processing

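The limma test on FPKM, which passed 0 genes higher and 0 lower, passed 101 and 29 when a gene's most abundant transcript was used in place of the sum, 607 and 542 on reads over exons, 45 and 11 without the replicate block (stimulus as the pairing), and 1 lower when transcripts not assembled were set to 0. The 2-fold rule, with 83 higher and 30 lower, gave 44 and 14 with a pseudocount of 5, 183 and 79 with transcripts not assembled set to 0, and 242 and 167 at 1.5-fold. Leaving out 1 pair at a time gave 112 to 294 higher and 51 to 207 lower. The exon-read test gave 291 higher and 160 lower without the replicate block, 332 lower with median-of-ratios scaling, and, leaving out 1 pair at a time, 0 to 1831 higher and 0 to 2525 lower. List medians were tried only for the 25 lists whose medians had 1 sign in the 3 pairs. Fits without the replicate block or with other variance settings leave a median as it is and count as unmoved. Of 375 alternatives for 25 list medians, 346 stayed within the spread between pairs, 24 moved beyond it and 5 changed sign. Those 5 were the BAFF and TNF family (0.0028) at -0.016 with a minimum of 5 FPKM and -0.030 without the pair of both stimuli (0.286 without the anti-IgM pair), and cytokine receptors and STAT genes (-0.019) at 0.044 with median-of-ratios scaling, 0.043 with upper-quartile scaling and 0.0026 without the BAFF pair (-0.099 without the anti-IgM pair); the cause was not tested. Of 360 alternatives for the 24 named genes, none changed sign and 60 passed the test where FPKM had not. The named genes were chosen for 1 sign in the 3 pairs and in reads over exons. Leaving out a pair or using reads over exons thus could not change their sign. Neither could the fits without the block or with other variance settings, which leave the difference as it is. With 1 library per condition, depth cannot replace the missing replicates.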
